A study of Mus musculus with 8 samples.

Results

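The genes described here are 60 mouse genes of the G2 phase and of mitosis, of 55487 annotated genes. They were taken by name, as a list of genes known to act in mitosis or to peak around it, and each gene's level is the sum over its transcripts of TPM, a share of all transcripts scaled for length. The samples were sorted from bone marrow of C57BL/6J mice: basophils (Lineage- CD34- ckit- CD200R3+ MAR1INT) and pre-Baso, a basophil precursor population (the same gate but MAR1HI). MAR1 is an antibody to the high-affinity IgE receptor. Each population came from Nfil3-deficient mice, labelled floxed out, and from littermate controls labelled wild type. Nfil3 encodes a leucine zipper transcription factor. The labels name neither the Cre driver nor an age. There were 2 libraries in each of the 4 groups, described in the series' design text as biological duplicates.

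To divide, a cell copies its DNA in S phase, passes G2 and then enters mitosis, when cyclin-dependent kinase 1 bound to cyclin A or B sets off chromosome condensation and spindle assembly. Kinetochores then join chromosomes to spindle fibres, the spindle checkpoint delays separation until all are joined, and the anaphase promoting complex marks cyclin B and securin for destruction so that the cell can divide. The genes of these steps are transcribed mainly in G2 and M, so in a bulk sample their RNA is a common readout of dividing cells. Basophil precursors in bone marrow divide, and mature basophils are regarded as cells that mostly do not.

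The 8 libraries held 272 to 398 megabases assigned to genes, and protein-coding genes took 18.7% to 22.4% of the TPM. Nfil3 had 0.853 and 1.32 TPM in deficient basophils and 20.5 and 22.5 TPM in control basophils, and 0 and 0.624 TPM in deficient pre-Baso and 6.61 and 7.65 TPM in control pre-Baso. Every library labelled deficient was below both control libraries of its population. The 10 basophil markers summed to 6985 and 11078 TPM in deficient basophils, 5315 and 7608 in control basophils, 23965 and 20861 in deficient pre-Baso, and 28230 and 35099 in control pre-Baso. Their median log2(TPM + 1) was 7.34 and 7.34 in deficient basophils and 7.84 and 7.81 in control basophils. In pre-Baso it was 7.10 and 7.96 in deficient and 7.78 and 8.21 in control libraries. From pre-Baso to basophils in control mice, 5 of the 10 had a positive and 5 a negative log2 change, with a median of -0.10. One of the 10, Mcpt8, which encodes a basophil protease, was nearly lost in deficient mice, with 2.73 and 1.98 TPM in deficient basophils and 969 and 1400 TPM in control basophils, and 4.08 and 6.04 TPM in deficient pre-Baso and 6244 and 7888 TPM in control pre-Baso (called lower by limma in basophils, -8.45 ± 0.24, adjusted p = 2.65e-06, and in pre-Baso, -10.20 ± 0.24, adjusted p = 5.56e-07). None of the other 9 was called between genotypes. Because the labels name no Cre driver, whether the allele carried by the deficient mice itself alters Mcpt8 cannot be read here. The loss of Mcpt8 therefore cannot be assigned to the loss of Nfil3, and its cause was not tested. Cd34 and Kit, which the gate excludes, stayed below 2 TPM in all 8 libraries. The 8 neutrophil markers summed to 2202 and 1308 TPM in deficient basophils, 2485 and 1387 in control basophils, 1227 and 876 in deficient pre-Baso, and 900 and 781 in control pre-Baso. The 8 monocyte and macrophage markers summed to 58.8 to 167 TPM in basophils and 20.9 to 34.2 TPM in pre-Baso. The 7 erythroid markers summed to 155 and 129 TPM in deficient basophils, 167 and 136 TPM in control basophils, 29.5 and 114 TPM in deficient pre-Baso, and 33.6 and 42.3 TPM in control pre-Baso. In control mice 4 of the 6 tested erythroid markers were called higher in basophils than in pre-Baso, against 12.6% of all tested genes. So were 4 of 8 neutrophil, 3 of 7 tested monocyte and macrophage, and 1 of 7 tested eosinophil markers. The first control basophil library stood apart by its 8 eosinophil markers, at 2660 TPM, against 30.7 TPM in the second and 14.7 to 191 TPM in the other 6 libraries. The mast cell markers Mcpt4 and Mrgprb2 and the T and NK cell markers Trac, Ncr1 and Klrb1c were listed at 0 in every library. All 5 mast cell markers summed to 1.17 and 0.646 TPM in deficient basophils and 0 in both control ones. In pre-Baso the sums reached 2.62 TPM in deficient and 0.839 TPM in control libraries, and both deficient libraries lay above both control ones. Only 1 of the 5 was tested. It was not called between genotypes, with an unadjusted limma p under 0.05 in both populations. The 7 T and NK cell markers summed to at most 0.884 TPM. Whether cells of these other types play a part in the results below was not tested.

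The promoters of the genes are shown first, because the letters they share were not used to choose them. Many mitotic genes carry a cell cycle genes homology region (CHR), which binds the MuvB protein complexes that silence these genes in resting cells and activate them in G2, and upstream of it boxes for the factor NF-Y. RefSeq promoter windows (GRCm38.p6) of 250 bases before to 50 bases after a transcription start were found for 50 of the 60 genes, as 53 windows. The CHR was searched as TTTGAA or TTTAAA and the NF-Y box as CCAAT, on both strands, and the motifs can share at most 1 edge letter. A CHR match was found in 43 of the 53 windows (81.1%), against 27.6% of all 32851 windows. An NF-Y box was found in 41 (77.4%), against 37.4% of all windows. Both occurred in 37 windows (69.8%), against 10.7% of all windows, and neither in 6 (11.3%), against 45.7%. The 6 were those of Mad2l1, Nuf2, Nusap1, Pttg1, Sapcd2 and Tacc3. TTTGAA accounted for most of the CHR matches, with 40 of the 53 windows (75.5%) against 17.9% of all, while TTTAAA was in 10 (18.9%) against 13.2%. Of the 64 CHR matches 45 (70.3%) began within 50 bases of the start, against 25.1% of all CHR matches, and the median first base lay 17.5 bases before the start. The 90 NF-Y matches began at a median of 66 bases before the start, and 34 of them (37.8%) within 50 bases of it, against 28.2% of all NF-Y matches. A match describes letters only, and no binding was measured.

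**Figure D1:**
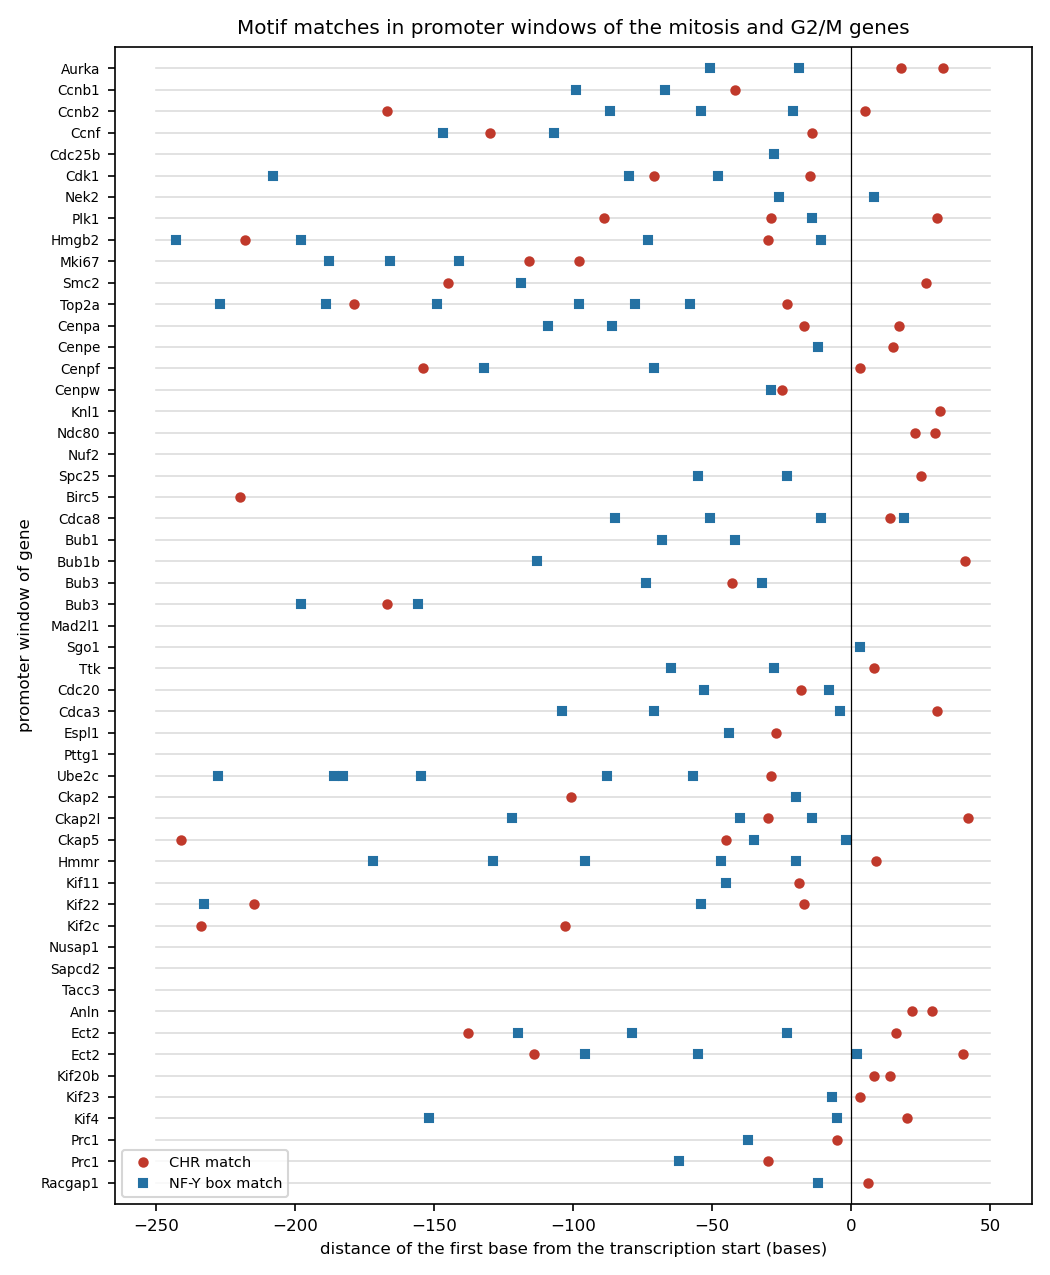
Positions of CHR matches (circles) and NF-Y box matches (squares) in the 53 promoter windows of 50 genes, as the distance in bases of the first base from the transcription start, one window per row. CHR matches crowd around the start, with 45 of 64 within 50 bases of it, and NF-Y matches lie mostly upstream.

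The 100 bases before the RefSeq start are printed for 7 genes that the values below turn on, on each gene's own strand, with CHR and NF-Y matches in capitals (ATTGG and TTCAAA are the same motifs read from the other strand). Cdk1, Ccnb1, Plk1, Ube2c and Top2a hold both motifs in this stretch. Birc5, the gene called between genotypes in basophils, and Pttg1, the gene whose TPM ran against the others, hold neither here. The full 300-base window of Birc5 has a CHR match 220 bases before the start, and that of Pttg1 has none. Mad2l1, Nuf2, Nusap1, Sapcd2 and Tacc3 also have neither motif in the full window. Control basophils kept 21.8%, 6.53%, 9.68%, 4.56% and 9.93% of the pre-Baso TPM of these genes, in that order. Whether the motifs bear on any change was not tested. The windows are chr10:69352913-69353012 (minus strand) for Cdk1, chr13:100786487-100786586 (minus) for Ccnb1, chr7:122159335-122159434 (plus) for Plk1, chr2:164769829-164769928 (plus) for Ube2c, chr11:99024190-99024289 (minus) for Top2a, chr11:117849137-117849236 (plus) for Birc5 and chr11:43425982-43426081 (minus) for Pttg1. In the annotation the authors counted against, Cdk1, Ccnb1 and Ube2c begin inside these windows, and the Pttg1 window lies within the gene.
Cdk1: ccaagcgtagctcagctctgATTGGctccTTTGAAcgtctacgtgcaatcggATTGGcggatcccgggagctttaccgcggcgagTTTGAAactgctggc
Ccnb1: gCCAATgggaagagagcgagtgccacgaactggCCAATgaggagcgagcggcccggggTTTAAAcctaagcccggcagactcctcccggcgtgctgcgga
Plk1: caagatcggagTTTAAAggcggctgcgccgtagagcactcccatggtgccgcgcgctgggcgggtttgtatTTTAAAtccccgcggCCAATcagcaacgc
Ube2c: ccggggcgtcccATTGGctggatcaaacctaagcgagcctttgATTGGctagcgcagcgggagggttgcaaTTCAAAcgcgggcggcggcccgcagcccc
Top2a: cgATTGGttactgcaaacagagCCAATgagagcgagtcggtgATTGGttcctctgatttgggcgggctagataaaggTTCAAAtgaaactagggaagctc
Birc5: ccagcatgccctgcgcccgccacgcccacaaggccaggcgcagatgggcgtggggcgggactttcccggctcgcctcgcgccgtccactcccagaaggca
Pttg1: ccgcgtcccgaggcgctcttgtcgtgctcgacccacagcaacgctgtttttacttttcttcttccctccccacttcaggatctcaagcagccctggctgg

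The RNA of the 60 genes was far more abundant in pre-Baso than in basophils in both genotypes, and deficient basophils retained more of it than control basophils. Summed over the 60 genes, it came to 262 and 433 TPM in deficient basophils, 170 and 177 TPM in control basophils, 1094 and 1030 TPM in deficient pre-Baso, and 998 and 1285 TPM in control pre-Baso. As a share of the TPM of protein-coding genes this was 0.138% and 0.217% in deficient basophils, 0.0806% and 0.0899% in control basophils, 0.534% and 0.540% in deficient pre-Baso, and 0.535% and 0.575% in control pre-Baso. All basophil libraries lay below all pre-Baso libraries, both deficient basophil libraries lay above both control ones, and the pre-Baso libraries of the genotypes overlapped. In bulk RNA, fewer dividing cells and less of these RNAs per cell cannot be told apart.

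**Figure D2:**
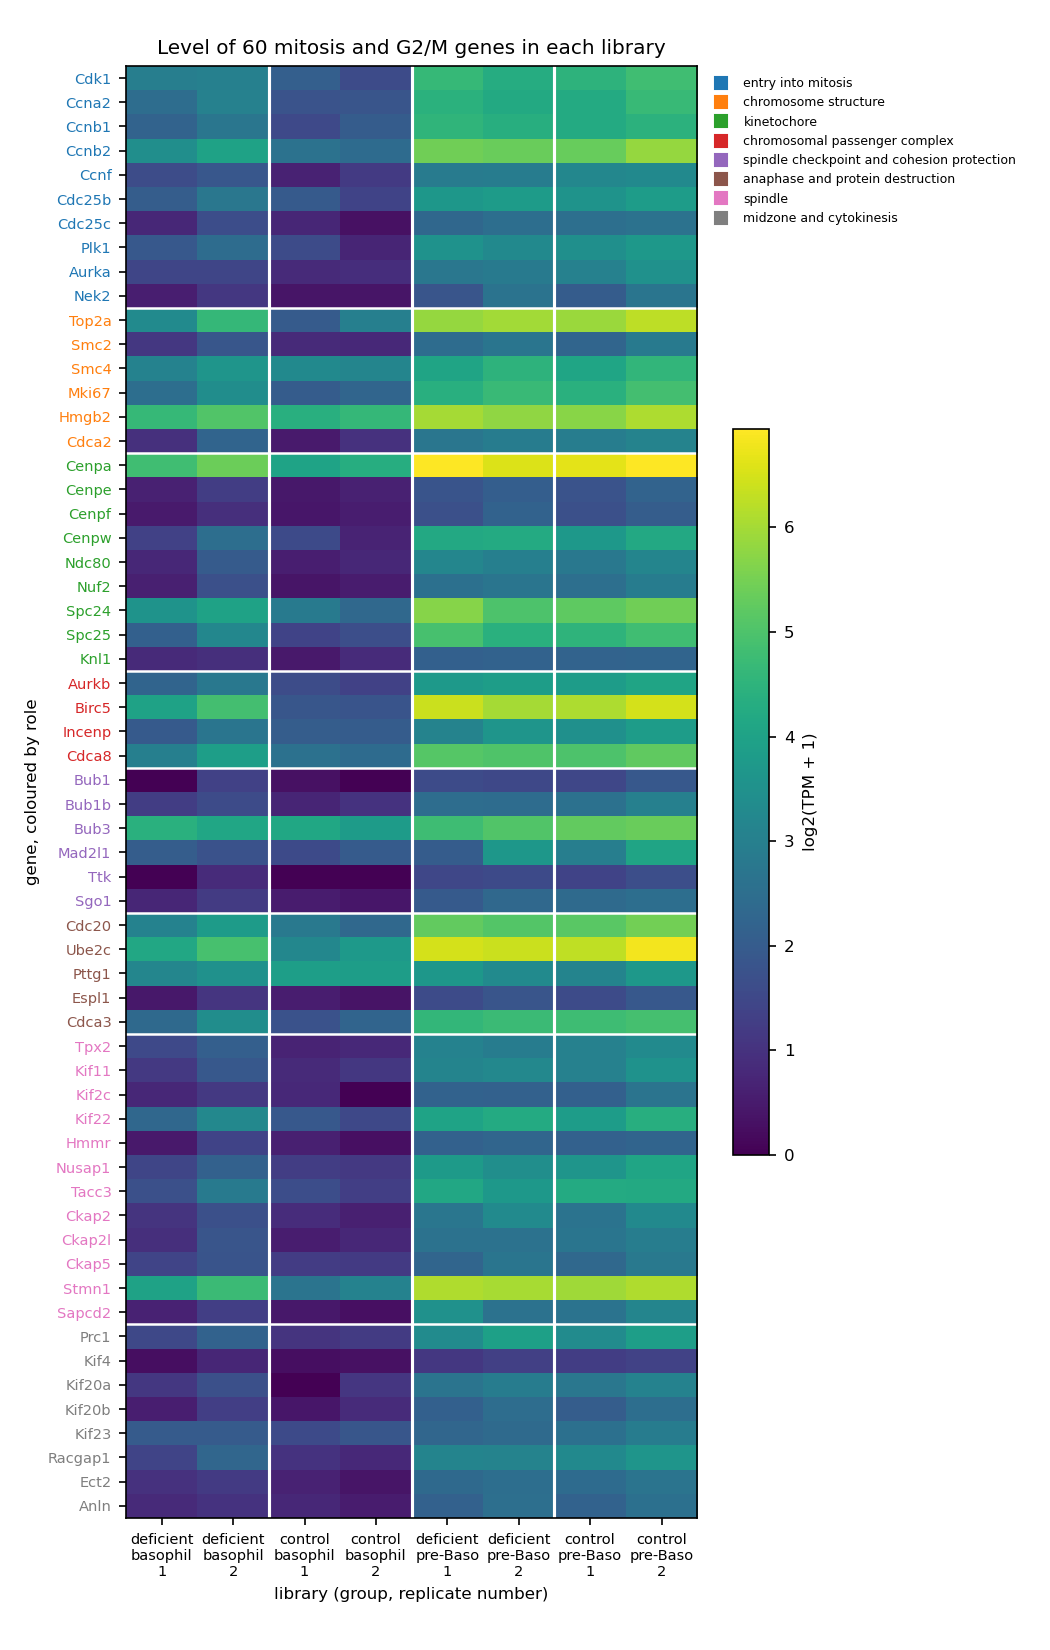
Level of each of the 60 genes (rows, coloured by role) in each of the 8 libraries (columns, by group and replicate number), as log2(TPM + 1). The 4 pre-Baso columns are brighter than the 4 basophil columns in nearly every row, Pttg1 excepted, and the second deficient basophil library is brighter than the control basophil libraries.

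From pre-Baso to basophils, 48 of the 60 genes fell in deficient mice at an adjusted p under 0.05, against 4.11% of the 12511 tested genes that were called lower, and none rose. In control mice 59 of the 60 fell, against 10.0% of tested genes called lower, and none rose. The test was limma on log2(TPM + 1), adjusted over all tested genes. In the counts below, a gene that fell or rose is one called lower or higher at this threshold. The shares of all tested genes given here also apply to the counts by role. The median log2 change over the 60 genes was -1.34 in deficient mice and -2.28 in control mice, where the medians over all tested genes were 0.10 and 0.08. The libraries of the populations did not overlap for 58 of the 60 genes in deficient mice (lower in basophils; 21.7% of tested genes) and for 59 in control mice (26.3%), where the remaining gene, Pttg1, was higher in both basophil libraries (36.4% of tested genes). In deficient mice no gene had a log2 change above 0 (59.6% of tested genes), and so none was higher at an unadjusted p under 0.05 (17.7%). All 60 genes passed the filter on low values, which required 2 libraries with a TPM of 1 or more, but only 41 would have passed on the basophil libraries alone. The other 19 were tested because pre-Baso levels were higher, so a difference was built into their selection. They were Cdc25c, Nek2, Cdca2, Cenpe, Cenpf, Ndc80, Nuf2, Knl1, Bub1, Ttk and Sgo1. Also among them were Espl1, Kif2c, Hmmr, Ckap2l, Sapcd2, Kif4, Kif20b and Anln. The counts by role below include these genes.

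Expressed as a share of the pre-Baso level, the basophils of deficient mice kept a median of 30.8% over the 60 genes (range 12.8% to 89.5%) and those of control mice a median of 10.9% (range 0% to 139%), and the share was higher in deficient mice for 59 genes. Pttg1 was at the top of both ranges. In deficient mice 25 of the 60 genes were called lower by limma with only the compared groups fitted, against 229 of 12511 tested genes. With no filter on low values 6 were, against 103 of 32088. Without either deficient pre-Baso library, or without the first deficient basophil library, fewer of the 60 genes and fewer of all tested genes were called. The median log2 change of the 60 genes was then -1.41 without the first deficient pre-Baso library and -1.26 without the second. It was -1.05 without the first deficient basophil library. In control mice 52 to 59 genes were called with any 1 library left out.

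**Figure D3:**
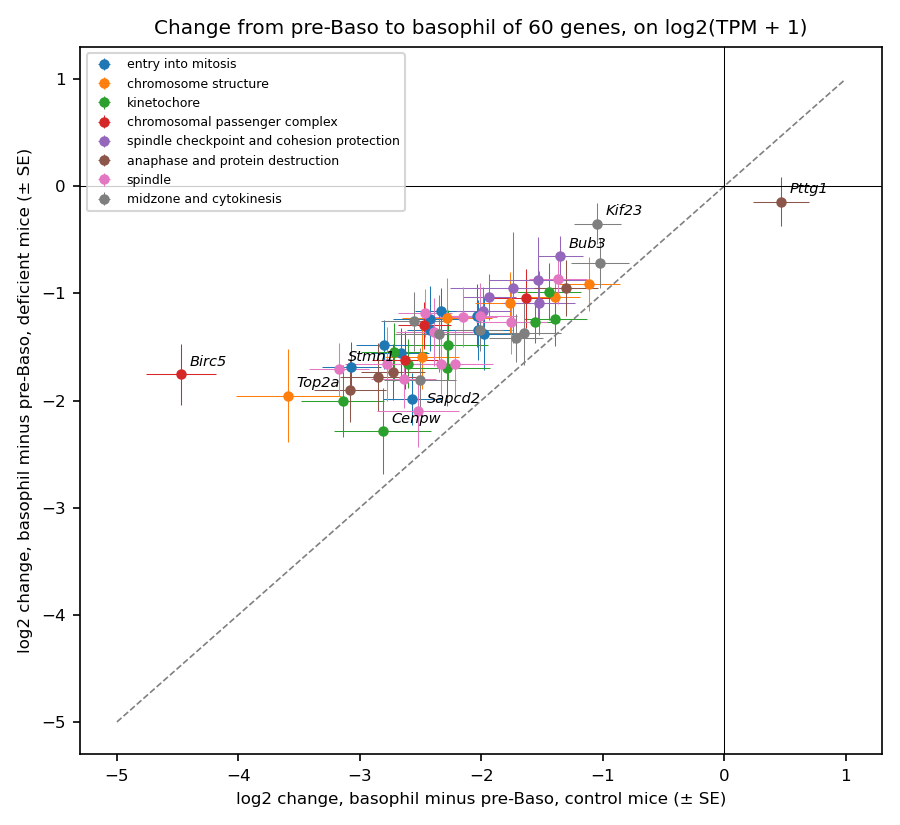
Log2 change from pre-Baso to basophil of the 60 genes in deficient mice (vertical axis) and in control mice (horizontal axis), on log2(TPM + 1) with SE, coloured by role, with the line of equal change dashed. All genes but Pttg1 lie above the dashed line and at negative values on both axes. The axes do not share libraries.

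Between genotypes, 1 of the 60 genes was called in basophils, Birc5, which was higher in deficient basophils; 0.0320% of tested genes were called higher and 0.0240% lower. The Birc5 call held in 10 of 20 settings and ended, among others, with 1 length per gene (log2 change 1.13, adjusted p = 0.259), as described with the gene. The log2 change was above 0 for 59 of the 60 genes, against 47.9% of tested genes, with a median of 0.68 against -0.01 over all tested genes. An unadjusted p under 0.05 with a positive change was found for 31 genes (4.91% of tested genes). The 2 deficient basophil libraries lay above both control basophil libraries for 43 genes (17.2% of tested genes), and below both for 1, Pttg1 (21.4%). The median moved with single libraries, to 0.30 without the second deficient basophil library and 1.06 without the first, and to 0.26 with a pseudocount of 5. In that second library 57 of the 60 genes were higher than in the first, against 64.2% of all tested genes. The same library had a larger basophil marker sum than the first, though the median log2(TPM + 1) of these markers was 7.34 in both. It had less of the neutrophil, monocyte and eosinophil markers (28.2 against 191 TPM for eosinophil and 58.8 against 129 TPM for monocyte markers), by the sums given above. The second control basophil library differed from the first in the same direction in these 4 marker sums, though by other amounts (30.7 against 2660 TPM for eosinophil markers). There 28 of the 60 genes were higher and 31 lower, against 37.0% of tested genes higher. The sum of the 6 granulocyte progenitor markers, described below, was higher in the second than in the first deficient basophil library (754 against 487 TPM). In control basophils it was lower in the second library (149 against 207 TPM). Whether the marker sums and the 60 genes are related was not tested.

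In pre-Baso none of the 60 genes was called by limma between genotypes, where 0.0320% of tested genes were called in each direction. With an unadjusted p under 0.05, Aurka alone was lower in deficient pre-Baso (-0.49 ± 0.19, adjusted p = 1), against 2.75% of tested genes, and none was higher (1.63%). The change was above 0 for 15 of the 60 genes (43.5% of tested genes), with a median of -0.10 against -0.04 over all. It was -0.28 without the first control pre-Baso library, -0.17 without the second deficient one and 0.08, of the opposite sign, without the second control one. Libraries did not overlap for 13 genes, all lower in deficient pre-Baso (19.3% of tested genes). In the second control pre-Baso library 59 of the 60 genes were higher than in the first, against 78.0% of tested genes.

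The difference of the genotype effect between the populations, basophils minus pre-Baso, was not called by limma for any of the 60 genes, nor for any of the 12511 tested genes (0%). An unadjusted p under 0.05 with a positive difference was found for 25 of the 60 genes, against 3.68% of tested genes, and with a negative one for none (1.82%). The difference was above 0 for 59 genes (53.3% of tested genes) and below it for Pttg1 (46.7%), with a median of 0.80 against 0.03. This median came to 0.49 in a fit lacking deficient basophil library 2 and to 1.10 in one lacking library 1. Birc5 (2.71 ± 0.41, adjusted p = 0.536), Stmn1 (1.46 ± 0.35, adjusted p = 0.839), Cdk1 (1.32 ± 0.32, adjusted p = 0.839) and Tpx2 (1.28 ± 0.31, adjusted p = 0.839) had the smallest p-values. With 1 length per gene the Birc5 difference was 1.26 ± 0.39 (adjusted p = 0.878). A larger genotype difference in basophils than in pre-Baso was therefore not established for any single gene.

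**Figure D4:**
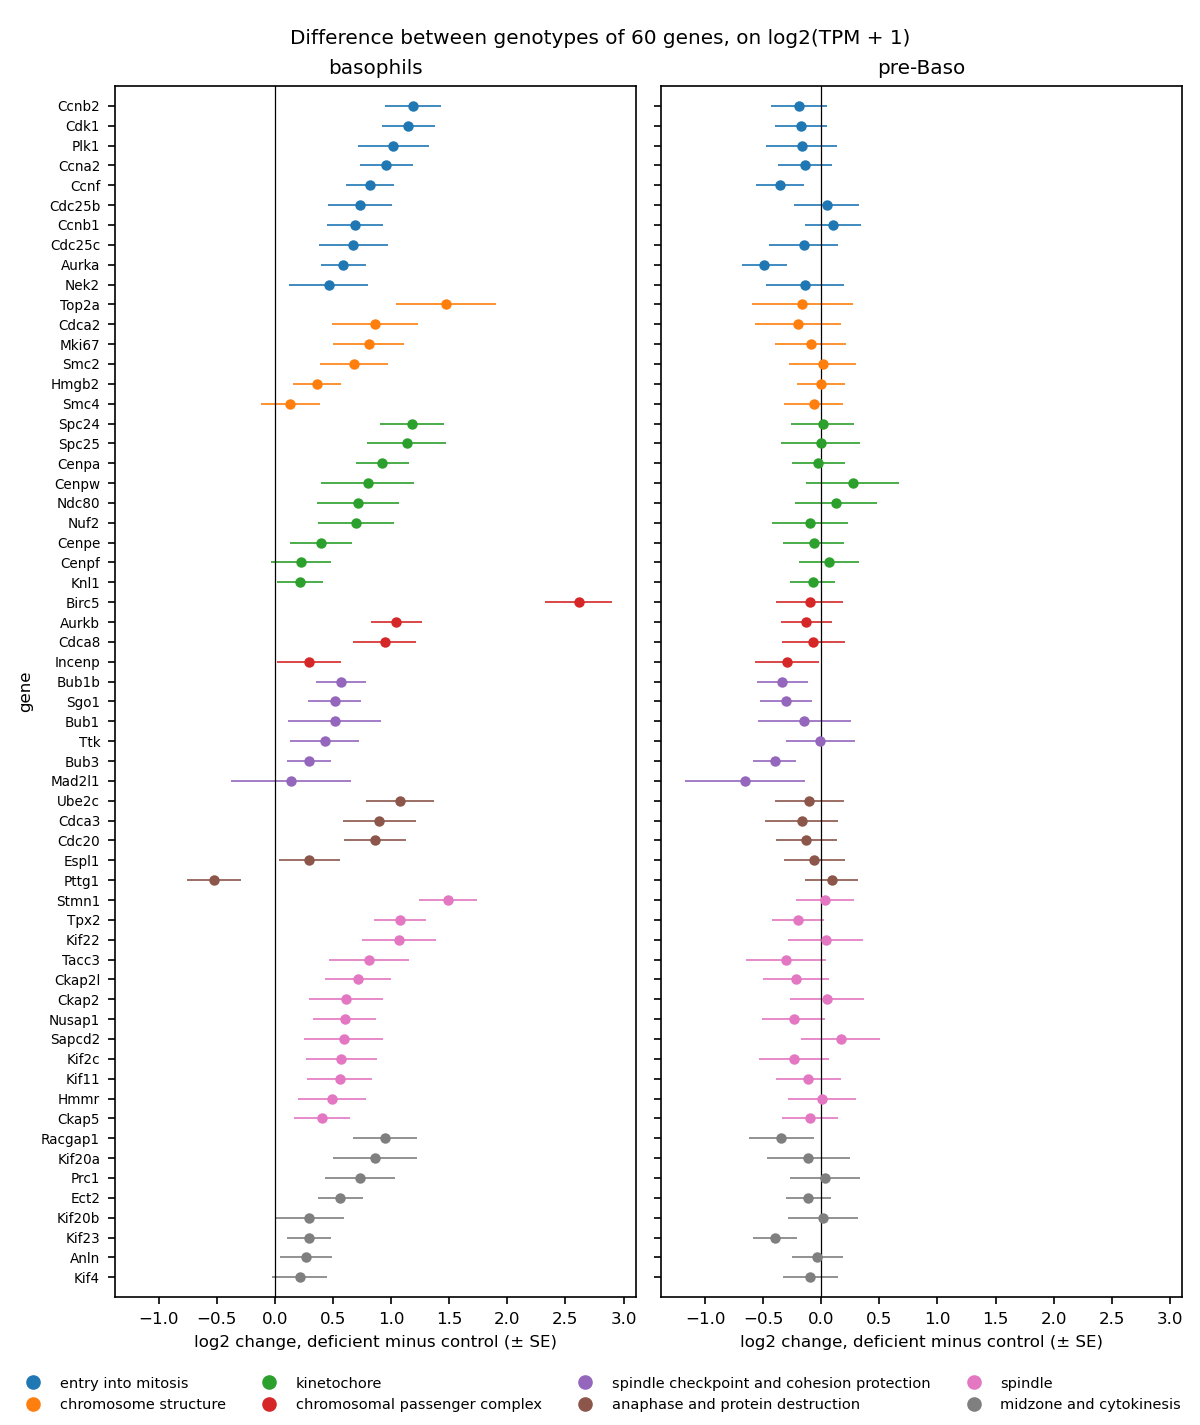
Log2 change between genotypes, deficient minus control, of the 60 genes in basophils (left) and in pre-Baso (right), on log2(TPM + 1) with SE, ordered by role. In basophils 59 points lie right of 0, Birc5 farthest at 2.61, and Pttg1 alone lies left of it. In pre-Baso the points lie around 0.

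The 10 genes of entry into mitosis all fell from pre-Baso to basophils in both genotypes. Cdk1 encodes the kinase that drives entry into mitosis (ENSMUSG00000019942, chr10:69335146-69352938 in the deposited annotation). Cdk1 had 6.79 and 7.16 TPM in deficient basophils, 3.33 and 1.99 TPM in control basophils, 23.9 and 18.8 TPM in deficient pre-Baso, and 21.3 and 27.2 TPM in control pre-Baso. Both deficient basophil libraries lay above both control ones, and all 4 basophil libraries below all 4 pre-Baso libraries. The change to basophils was -1.48 ± 0.23 (adjusted p = 0.00876) in deficient mice and -2.80 ± 0.23 (adjusted p = 0.000394) in control mice; between genotypes in basophils it was 1.15 ± 0.23 (adjusted p = 0.215).

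Ccnb2 encodes a cyclin B that activates Cdk1. Ccnb2 had 9.76 and 15.0 TPM in deficient basophils, 5.16 and 4.39 TPM in control basophils, 42.6 and 40.1 TPM in deficient pre-Baso, and 39.4 and 56.9 TPM in control pre-Baso. It fell by 1.69 ± 0.24 (adjusted p = 0.00763) on the log2 scale in deficient mice and by 3.07 ± 0.24 (adjusted p = 0.000384) in control mice, and the genotype change in basophils was 1.19 ± 0.24 (adjusted p = 0.215). Ccnb1, the other cyclin B of mitosis, had 3.60 and 5.64 TPM in deficient basophils and 1.89 and 3.08 TPM in control basophils, and 22.3 and 19.5 TPM in deficient pre-Baso and 18.0 and 20.9 TPM in control pre-Baso. The genotype difference of Ccnb1 in basophils was smaller, at 0.69 ± 0.24 (adjusted p = 0.452). Ccna2, the cyclin A of S phase and G2, had 4.61 and 7.22 TPM in deficient basophils and 2.43 and 2.56 TPM in control basophils; its exons overlap those of the opposite-strand gene Exosc9, and the counting used no strand option, so some of this signal may belong to that gene.

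Plk1, the kinase that triggers Cdk1 activation and centrosome maturation, had 2.74 and 4.50 TPM in deficient basophils and 2.03 and 0.655 TPM in control basophils, and 10.7 and 8.73 TPM in deficient pre-Baso and 10.0 and 12.1 TPM in control pre-Baso. The change was -1.23 ± 0.31 (adjusted p = 0.039) in deficient mice and -2.42 ± 0.31 (adjusted p = 0.00154) in control mice. Aurka, a kinase of centrosomes and spindle poles, had 1.73 and 1.75 TPM in deficient basophils and 0.782 and 0.862 TPM in control basophils, and 5.78 and 6.09 TPM in deficient pre-Baso and 7.31 and 10.4 TPM in control pre-Baso, so both genotypes' libraries were separate in each population, in opposite directions. Ccnf, which encodes cyclin F, a substrate receptor of a ubiquitin ligase, showed the same arrangement, with 2.03 and 2.68 TPM in deficient basophils and 0.593 and 1.26 TPM in control basophils, and 6.34 and 6.60 TPM in deficient pre-Baso and 8.33 and 8.78 TPM in control pre-Baso. Neither gene was called between genotypes in either population. The phosphatase genes Cdc25b and Cdc25c, whose products activate Cdk1, and the centrosome kinase gene Nek2 had basophil changes between genotypes of 0.46 to 0.73, with adjusted p of 0.498 or more.

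**Figure D5:**
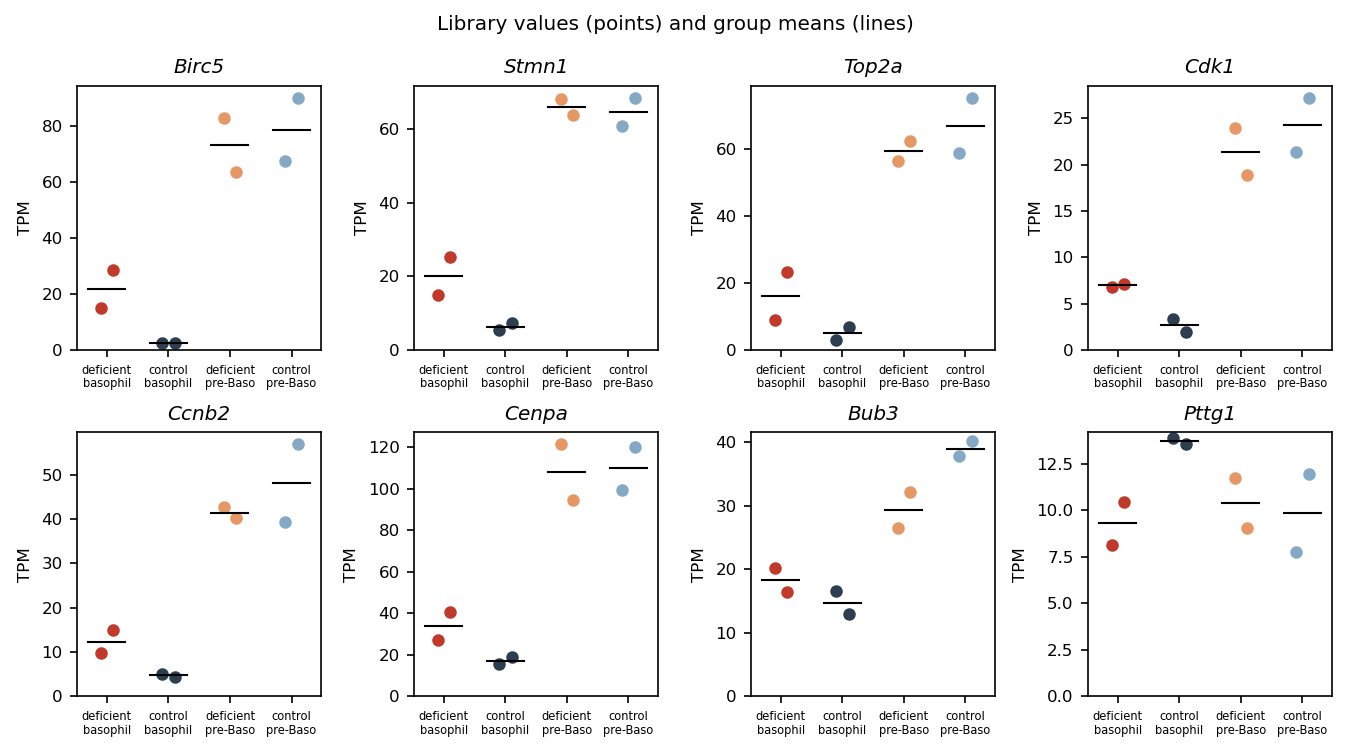
TPM of 8 of the genes in each library (points), with group means (lines), for the 4 groups; each panel's axis starts at 0. Deficient basophils lie between control basophils and the pre-Baso groups for Birc5, Stmn1, Top2a, Cdk1, Ccnb2 and Cenpa, Bub3 differs less between the populations, and Pttg1 is no lower in basophils than in pre-Baso of the control mice.

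Among the 6 genes of chromosome structure, 4 were called lower in deficient mice and all 6 in control mice. Top2a, the DNA topoisomerase that untangles sister chromatids (chr11:98992943-99024189), is one of the most abundant of the 60. Top2a had 8.93 and 23.4 TPM in deficient basophils, 2.96 and 6.95 TPM in control basophils, 56.4 and 62.4 TPM in deficient pre-Baso, and 58.9 and 75.2 TPM in control pre-Baso. The deficient basophil libraries were far apart, but the lower of them was above the higher control basophil library. The change was -1.95 ± 0.43 (adjusted p = 0.0284) in deficient mice and -3.59 ± 0.43 (adjusted p = 0.00125) in control mice, and 1.47 ± 0.43 (adjusted p = 0.362) between genotypes in basophils. Mki67, whose protein coats mitotic chromosomes and is the usual histological marker of cycling cells, had 4.65 and 9.54 TPM in deficient basophils and 3.05 and 3.81 TPM in control basophils, and 19.7 and 25.1 TPM in deficient pre-Baso and 20.1 and 28.0 TPM in control pre-Baso. Of the condensin core genes, Smc2 had 1.16 and 2.64 TPM in deficient basophils and 0.765 and 0.732 TPM in control basophils, while Smc4 had 7.51 and 11.3 TPM in deficient basophils and 8.74 and 7.96 TPM in control basophils, with overlapping genotypes. Smc4 and Cdca2, which encodes a targeting subunit of protein phosphatase 1 on chromatin, were the 2 of this group not called in deficient mice (-0.91 ± 0.25, adjusted p = 0.0539 and -1.23 ± 0.37, adjusted p = 0.0703). Hmgb2, a DNA-bending protein gene, kept 48.5% of its pre-Baso level in deficient basophils and 36.8% in control basophils, with 24.2 and 32.5 TPM in deficient basophils and 19.9 and 23.6 TPM in control basophils, and 62.7 and 54.2 TPM in deficient pre-Baso and 51.0 and 67.0 TPM in control pre-Baso.

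All 9 kinetochore genes were called lower in control mice and 8 in deficient mice, where Cenpe was lower but not called (-0.98 ± 0.26, adjusted p = 0.0501). Cenpa, the histone H3 variant that marks centromeres, was the most abundant of the 60 genes in pre-Baso. Cenpa had 27.3 and 40.8 TPM in deficient basophils, 15.4 and 19.0 TPM in control basophils, 122 and 94.7 TPM in deficient pre-Baso, and 99.5 and 120 TPM in control pre-Baso. Deficient basophils lay between the other groups with no overlap, and the genotype change in basophils was 0.92 ± 0.23 (adjusted p = 0.288). The Ndc80 complex, which grips spindle fibres, has 4 subunits. Spc24 had 10.8 and 15.0 TPM in deficient basophils and 6.19 and 4.12 TPM in control basophils. Spc25 had 3.35 and 8.19 TPM in deficient basophils and 1.62 and 2.17 TPM in control basophils. For both genes the genotypes were separate in basophils. Ndc80 had 0.721 and 3.01 TPM in deficient basophils and 0.507 and 0.697 TPM in control basophils. Nuf2 had 0.525 and 2.23 TPM in deficient basophils and 0.311 and 0.432 TPM in control basophils. For these 2 the first deficient library lay close to the control libraries, and the second well above them. In pre-Baso the same 4 genes had means of 40.3, 24.7, 7.51 and 5.21 TPM in deficient mice and 39.0, 24.6, 6.85 and 5.69 TPM in control mice, in that order of genes. Cenpw, a centromere protein gene, had the lowest log2(TPM + 1) change of all 60 genes in deficient mice, -2.28 ± 0.40 (adjusted p = 0.0136), and its basophil libraries overlapped between genotypes. Knl1, the scaffold of checkpoint proteins at kinetochores, and Cenpf had genotype changes in basophils of 0.21 and 0.22.

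The chromosomal passenger complex corrects faulty attachments and then moves to the spindle midzone, and its 4 genes fell in both genotypes. Aurkb, its kinase, had 3.71 and 5.87 TPM in deficient basophils and 2.03 and 1.52 TPM in control basophils, and 12.3 and 13.7 TPM in deficient pre-Baso and 13.2 and 15.5 TPM in control pre-Baso, with a genotype change in basophils of 1.04 ± 0.22 (adjusted p = 0.215). Cdca8, which encodes borealin, had 7.04 and 13.9 TPM in deficient basophils and 5.02 and 4.37 TPM in control basophils. Incenp, the scaffold, had 2.89 and 5.44 TPM in deficient basophils and 3.13 and 3.05 TPM in control basophils, so that its genotypes overlapped. Birc5 (ENSMUSG00000017716, chr11:117849251-117855743, plus strand) encodes survivin, the subunit that anchors the complex to chromatin and is also studied as an inhibitor of cell death. Birc5 had 15.1 and 28.4 TPM in deficient basophils, 2.60 and 2.50 TPM in control basophils, 82.7 and 63.4 TPM in deficient pre-Baso, and 67.3 and 89.8 TPM in control pre-Baso. The level kept was 29.7% of that of pre-Baso in deficient basophils and 3.25% in control basophils, and the genotypes did not overlap in basophils. The genotype change in basophils was 2.61 ± 0.29 (adjusted p = 0.0231), the only call of the 60 genes in that comparison.

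The Birc5 call moved with the transcript to which the reads were assigned. The annotation holds 2 Birc5 transcripts, of 947 and 3334 bases. The short one had 14.5 and 26.3 TPM in deficient basophils and 0 in both control basophil libraries, against 81.4 and 60.4 TPM in deficient pre-Baso and 64.1 and 87.0 TPM in control pre-Baso. The long one had 0.563 and 2.13 TPM in deficient basophils, 2.60 and 2.50 TPM in control basophils, 1.36 and 2.98 TPM in deficient pre-Baso, and 3.19 and 2.78 TPM in control pre-Baso. Because TPM divides by length, the same bases count for less on the long transcript. The bases assigned to the gene were 7907 and 18385 in deficient basophils and 3835 and 4086 in control basophils. With 1 length per gene (assigned bases over the longest transcript, scaled to a common total; an alternative chosen after seeing the data), Birc5 had 4.86 and 9.96 units in deficient basophils, 2.71 and 2.60 in control basophils, 25.4 and 20.8 in deficient pre-Baso, and 22.1 and 28.6 in control pre-Baso. The fold between the basophil means was then 2.79, against 8.52 in TPM, and the genotype change was 1.13 ± 0.28 (adjusted p = 0.259), no longer called. Among the 59 genes with a fold on both scales, Birc5 was the only one whose fold moved by over 1.5 times, and the median fold was 2.33 with 1 length and 2.37 in TPM. On that scale both deficient basophil libraries lay above both control ones for 46 of the 60 genes, and the fall to basophils stayed called for 54 genes in deficient and 59 in control mice. In TPM, too, the call ended in other settings: the adjusted p was 0.279 with only the basophil groups fitted, 0.131 with no filter on low values, 0.0696 with a pseudocount of 5, 0.0637 and 0.0642 without the first and second control pre-Baso library, 0.0596 and 0.0585 without the first and second deficient pre-Baso library, 0.0531 without the second control basophil library, and 0.0509 without the second deficient basophil library.

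The 6 spindle checkpoint genes had a median log2(TPM + 1) change to basophils of -0.99 in deficient mice and -1.64 in control mice. All 6 were called lower in control mice. In deficient mice all 6 had a negative change, and Bub1b (-1.03 ± 0.22, adjusted p = 0.0241) and Sgo1 (-1.16 ± 0.23, adjusted p = 0.0185) were called. Bub1b encodes a checkpoint kinase-like protein that binds Cdc20, and Sgo1 protects centromeric cohesion. Bub3, a scaffold of the checkpoint with other roles outside mitosis, was abundant in every group. Bub3 had 20.2 and 16.4 TPM in deficient basophils, 16.5 and 13.0 TPM in control basophils, 26.5 and 32.1 TPM in deficient pre-Baso, and 37.7 and 40.1 TPM in control pre-Baso. Its deficient pre-Baso libraries lay below both control ones (-0.40 ± 0.19, adjusted p = 1), and its change to basophils in deficient mice was -0.65 ± 0.19 (adjusted p = 0.0588). With 1 length per gene the pre-Baso genotypes of Bub3 overlapped, at 24.5 and 18.9 units in deficient and 22.7 and 27.5 units in control libraries. Mad2l1, the protein that inhibits Cdc20, varied widely between replicates. Mad2l1 had 3.15 and 2.38 TPM in deficient basophils, 1.93 and 2.94 TPM in control basophils, 3.09 and 11.7 TPM in deficient pre-Baso, and 6.82 and 15.5 TPM in control pre-Baso. In TPM the pre-Baso replicates differed within each genotype by more than the genotypes did. With 1 length per gene the spread was smaller, at 3.20 and 3.66 units in deficient pre-Baso and 3.62 and 4.59 units in control pre-Baso. Bub1 and Ttk, both checkpoint kinases, were near the detection limit in basophils. Ttk was listed at 0 in the first deficient basophil library and in both control basophil libraries, and at 0.806 TPM in the second deficient one. Bub1 was listed at 0 in the first deficient and the second control basophil library, at 1.54 TPM in the second deficient and at 0.250 TPM in the first control one. At this depth no genotype difference of these 2 genes was detectable.

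Of the 5 genes of anaphase and protein destruction, 3 were called lower in deficient and 4 in control mice. Ube2c, the ubiquitin-conjugating enzyme that works with the anaphase promoting complex, is among the most abundant of the 60. Ube2c had 16.9 and 29.1 TPM in deficient basophils, 8.20 and 12.2 TPM in control basophils, 89.2 and 82.9 TPM in deficient pre-Baso, and 76.1 and 112 TPM in control pre-Baso. The genotype change in basophils was 1.08 ± 0.29 (adjusted p = 0.324). Cdc20, the activator of that complex, had 7.47 and 12.9 TPM in deficient basophils and 5.99 and 4.12 TPM in control basophils, and 37.3 and 33.0 TPM in deficient pre-Baso and 34.7 and 42.7 TPM in control pre-Baso. Cdca3, which promotes destruction of the mitotic inhibitor Wee1, had 4.22 and 9.5 TPM in deficient basophils and 2.34 and 3.73 TPM in control basophils. Espl1 encodes separase, the protease that cleaves cohesin; it was called in control mice (-1.30 ± 0.26, adjusted p = 0.01) and not in deficient mice (-0.95 ± 0.26, adjusted p = 0.0541).

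Pttg1 (ENSMUSG00000020415, chr11:43420250-43426251, minus strand) encodes securin, which holds separase inactive, and in TPM it was the only one of the 60 genes that ran the other way. Pttg1 had 8.13 and 10.5 TPM in deficient basophils, 13.9 and 13.6 TPM in control basophils, 11.7 and 9.06 TPM in deficient pre-Baso, and 7.75 and 11.9 TPM in control pre-Baso. In TPM, control basophils had the highest values and lay above both control pre-Baso and both deficient basophil libraries. With 1 length per gene both separations ended, with 6.17 and 7.90 units in deficient basophils, 11 and 6.92 units in control basophils, and 4.59 and 7.07 units in control pre-Baso. No change passed the test: -0.14 ± 0.23 (adjusted p = 0.73) to basophils in deficient mice, 0.47 ± 0.23 (adjusted p = 0.183) in control mice, and -0.52 ± 0.23 (adjusted p = 0.587) between genotypes in basophils. Its separase partner, its ubiquitin ligase activator Cdc20 and its E2 enzyme Ube2c all had far lower levels in control basophils than in control pre-Baso.

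The 12 spindle genes were called lower in control mice. In deficient mice all but Ckap5 were called lower, and Ckap5 was lower but not called (-0.86 ± 0.24, adjusted p = 0.0546). Stmn1 encodes stathmin, a protein that sequesters tubulin. Stmn1 had 14.9 and 25.4 TPM in deficient basophils, 5.35 and 7.37 TPM in control basophils, 68.3 and 63.9 TPM in deficient pre-Baso, and 60.9 and 68.6 TPM in control pre-Baso. Deficient basophils were separate from every other group. The change to basophils was -1.71 ± 0.25 (adjusted p = 0.00785) in deficient mice and -3.17 ± 0.25 (adjusted p = 0.000384) in control mice, and 1.49 ± 0.25 (adjusted p = 0.124) between genotypes in basophils. It was called (adjusted p = 0.0477) only without the first deficient basophil library. Tpx2, which activates Aurora A on the spindle, had 1.89 and 3.27 TPM in deficient basophils and 0.605 and 0.730 TPM in control basophils, and 7.49 and 6.5 TPM in deficient pre-Baso and 7.34 and 9.07 TPM in control pre-Baso, with a genotype change in basophils of 1.08 ± 0.22 (adjusted p = 0.215). Kif22, a motor that pushes chromosome arms outward, had 3.96 and 8.47 TPM in deficient basophils and 2.76 and 1.86 TPM in control basophils. Kif11, the motor that separates spindle poles, had 1.21 and 2.77 TPM in deficient basophils and 0.774 and 1.17 TPM in control basophils. Kif2c, a motor that shortens microtubules, was listed at 0 in the second control basophil library and had 0.734 TPM in the first, within the range of the deficient libraries at 0.713 and 1.23 TPM. Tacc3, which with Ckap5 and clathrin bundles spindle fibres, had 2.26 and 6.13 TPM in deficient basophils and 2.11 and 1.43 TPM in control basophils. Sapcd2, which acts in spindle orientation, kept the smallest share of its pre-Baso level in deficient basophils, 12.8%. The remaining spindle genes, Hmmr, Nusap1, Ckap2, Ckap2l and Ckap5, had genotype changes in basophils of 0.40 to 0.71.

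All 8 genes of the midzone and of cytokinesis were called lower in control mice, and 6 in deficient mice, where all 8 had a negative change. Prc1, which bundles microtubules of the midzone, had 1.85 and 3.56 TPM in deficient basophils and 1.05 and 1.30 TPM in control basophils, and 9.23 and 14.5 TPM in deficient pre-Baso and 9.25 and 13.8 TPM in control pre-Baso. Racgap1 and Kif23 form the centralspindlin complex. Racgap1 had 1.70 and 3.87 TPM in deficient basophils and 1.02 and 0.737 TPM in control basophils, and 7.70 and 7.64 TPM in deficient pre-Baso and 8.75 and 11.4 TPM in control pre-Baso, and fell in both genotypes. Kif23 had 3.01 and 2.96 TPM in deficient basophils and 1.93 and 2.60 TPM in control basophils, and 3.89 and 4.26 TPM in deficient pre-Baso and 4.95 and 6.53 TPM in control pre-Baso. Its change to basophils was -0.35 ± 0.19 (adjusted p = 0.273) in deficient mice and -1.04 ± 0.19 (adjusted p = 0.00689) in control mice. In TPM, Kif23 kept 73.2% of the pre-Baso level in deficient basophils and 39.5% in control basophils. With 1 length per gene its basophil genotypes overlapped, at 1.86 and 3.02 units in deficient and 1.94 and 2.57 units in control libraries. The means on that scale were 2.44 in basophils and 3.93 in pre-Baso of deficient mice, and 2.25 and 4.33 in control mice. Ect2, the activator of RhoA at the cleavage plane, had 1.0 and 1.28 TPM in deficient basophils and 0.580 and 0.323 TPM in control basophils, and Anln, which encodes the ring scaffold anillin, had 0.789 and 1.0 TPM in deficient basophils and 0.705 and 0.454 TPM in control basophils. The motor gene Kif20a was listed at 0 in the first control basophil library and had 1.16 TPM in the second, against 1.18 and 2.27 TPM in deficient basophils. Kif20b, a related motor, had 0.492 and 1.44 TPM in deficient basophils and 0.345 and 0.793 TPM in control basophils. Kif4, another midzone motor, stayed below 1 TPM in basophils and was not called in deficient mice (-0.72 ± 0.24, adjusted p = 0.0905). Exons of 15 of the 60 genes overlap a gene on the opposite strand, by 977 bases for Kif20a with Cdc23 and 683 bases for Kif4 with Pdzd11, and reads there cannot be told apart.

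Genes of the same pathway outside the 60 were read from lists of the same kind. Of 46 other mitotic genes 45 were tested. In deficient mice 24 fell (4.11% of all tested genes fell) and in control mice 39 (10.0%). None rose, and the median log2 changes were -0.95 and -1.52. Their median log2(TPM + 1) was 0.69 and 0.81 in control basophils, which is below a TPM of 1, and 0.99 and 1.47 in deficient basophils. Genes that passed the filter on pre-Baso libraries alone had a difference built into their selection, here and in the lists below. Cks1b, a small partner of Cdk1, had 32.2 and 50.5 TPM in deficient basophils and 18.9 and 18.3 TPM in control basophils, and 150 and 120 TPM in deficient pre-Baso and 116 and 155 TPM in control pre-Baso. In basophils 44 of the 46 had a positive genotype change (47.9% of tested genes), with a median of 0.53. None was called by limma, while 14 had an unadjusted p under 0.05, as had 1065 of the 12511 tested genes. Among 15 subunits and partners of the anaphase promoting complex, of which 14 were tested, Ube2s, the enzyme that lengthens ubiquitin chains, fell in deficient mice (-1.17 ± 0.27, adjusted p = 0.0316), and 5 fell and 1, Anapc2, rose in control mice, against the same shares of 4.11% and 10.0% falling and 12.6% rising in control mice over all tested genes. The median genotype change in basophils was 0.08. In neither genotype did most of these subunits pass the test.

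Regulators that switch mitotic genes on or off were also measured, as 17 genes of which 15 were tested. In deficient mice 1 of them fell, Foxm1, which is near the 4.11% of all tested genes. In control mice 9 fell, against 10.0% of tested genes, and 1 rose, Rbl2, a pocket protein of the repressive complex, where 12.6% of tested genes rose. Foxm1, the transcription factor that activates G2 genes, had 1.56 and 3.35 TPM in deficient basophils and 1.04 and 0.870 TPM in control basophils, and 6.99 and 7.12 TPM in deficient pre-Baso and 7.01 and 11.1 TPM in control pre-Baso. The change was -1.27 ± 0.28 (adjusted p = 0.0289) in deficient mice and -2.34 ± 0.28 (adjusted p = 0.00128) in control mice, and the genotype change in basophils was 0.77 ± 0.28 (adjusted p = 0.484). Mybl2, the B-Myb partner of the MuvB complex, had 0.997 and 1.35 TPM in deficient basophils and 0.506 and 0.757 TPM in control basophils; it was called in control mice (-1.15 ± 0.20, adjusted p = 0.00519) but not in deficient mice (-0.56 ± 0.20, adjusted p = 0.108). Rbl2 had 11 and 14.2 TPM in deficient basophils and 13.0 and 16.0 TPM in control basophils, and 6.17 and 8.98 TPM in deficient pre-Baso and 6.10 and 8.5 TPM in control pre-Baso. None of these regulators was called by limma between genotypes in basophils. An unadjusted p under 0.05 was found for 3 of the 15 tested, as for 1065 of the 12511 tested genes.

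Of 11 inhibitors of mitotic entry or of the anaphase promoting complex, 10 were tested. In deficient mice 3 fell and 1 rose, against 4.11% and 6.79% of all tested genes, and in control mice 5 fell and 2 rose, against 10.0% and 12.6%, so the genes that rose were close to the share over all genes. Gadd45a, a stress-induced inhibitor of Cdk1, rose in both (1.04 ± 0.21, adjusted p = 0.0204 in deficient mice and 1.05 ± 0.21, adjusted p = 0.00952 in control mice). Cdkn1b, which encodes the G1 inhibitor p27, had 18.9 and 27.2 TPM in deficient basophils and 30.5 and 31.6 TPM in control basophils, and 14.1 and 10.3 TPM in deficient pre-Baso and 13.6 and 18.1 TPM in control pre-Baso; it rose in control mice (0.94 ± 0.23, adjusted p = 0.0229) and had 0.86 ± 0.23 (adjusted p = 0.0515) in deficient mice. Fbxo5, which encodes the inhibitor EMI1 of the anaphase promoting complex, fell by 1.40 ± 0.31 (adjusted p = 0.0272) in deficient mice and by 2.27 ± 0.31 (adjusted p = 0.00196) in control mice. The 39 DNA replication genes, 37 of them tested, were measured alongside: 17 fell in deficient mice (4.11% of all tested genes) and 33 in control mice (10.0%), and 37 of the 39 had a positive genotype change in basophils (47.9%) with a median of 0.50. None of them was called there by limma, and 15 of the 37 tested had an unadjusted p under 0.05, as had 1065 of the 12511 tested genes.

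The granulocyte progenitor markers differed in part between genotypes in basophils. Their 6 genes summed to 487 and 754 TPM in deficient basophils, 207 and 149 TPM in control basophils, 2272 and 1816 TPM in deficient pre-Baso, and 1213 and 1279 TPM in control pre-Baso. Ctsg, the cathepsin G gene, had 375 and 592 TPM in deficient basophils and 85.1 and 90.4 TPM in control basophils. It was the 1 of 6 called by limma (2.41 ± 0.21, adjusted p = 0.00505), where 0.0320% of tested genes were called higher. Mpo, the myeloperoxidase gene, had 50.9 and 91.1 TPM in deficient basophils and 41.3 and 23.4 TPM in control basophils, Ms4a3 had a log2 change of 0.76, and Elane, Prtn3 and Cebpe had log2 changes of -0.19, -0.05 and -0.70, none of them called. In pre-Baso the granulocyte progenitor sums were also higher in both deficient libraries than in both control ones. The genotype changes of these 6 genes in pre-Baso were -0.73 to 1.07, with 2 above and 4 below 0 and a median of -0.25. None was called there (0.0320% of tested genes in each direction). The 6 stem and multipotent progenitor markers summed to 4.12 and 2.94 TPM in deficient basophils and 7.0 and 2.92 TPM in control basophils. The part of less mature cells in the basophil gate in the difference of the 60 genes was not tested.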

How the data were processed

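RNA of 8 libraries was sequenced by the authors. Per the submitters' processing notes, HISAT2 was the aligner (its version is not given in the sources used here) and mm10 the genome, and per the file headers transcripts were quantified with StringTie 2.1.4 with the -e option against Ensembl release 101 (142699 transcripts per file), with no strand option. The deposited files give TPM, FPKM and coverage per transcript, as computed by the authors, and no read counts, so a count model could not be used and intervals for counting error were not computed.

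TPM was summed per gene by gene ID. The 60 genes and all lists were chosen with earlier results of these data known. The 12511 genes that reached a TPM of 1 in 2 or more libraries were tested with limma 3.58.1 in R 4.3.3 on log2(TPM + 1), with 1 mean per group and all 8 libraries sharing the estimate of spread (4 residual degrees of freedom). Contrasts were deficient minus control within each population, basophil minus pre-Baso for each genotype, and the genotype effect in basophils minus that in pre-Baso. P-values were adjusted by Benjamini-Hochberg over all tested genes, and a call needed an adjusted p under 0.05. A ± value is an SE. The contrasts share libraries. Fold changes on this scale understate those of low genes. Any of the 60 genes could be named, called or not; of the other pathway lists, called genes or up to 6 with the smallest adjusted p, and of other cell types' markers the 2 most abundant. Mast, T and NK cell markers at 0, and the granulocyte progenitor markers Elane, Prtn3, Ms4a3 and Cebpe, were named after their values were seen. The code was tested on simulated data with known changes.

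Replicates are called biological duplicates in the series' design text; the labels pair none of them. Replicate differences correlated at -0.0544 to 0.202 between groups. Alternatives were other pseudocounts, filters, scalings, FPKM, fewer groups, a replicate block, each library left out, and, chosen after seeing the data, 1 length per gene. Assigned bases are the deposited coverage multiplied by transcript length. Symbols came from the files for 45578 genes and from the reference for 9814. Figures were drawn with matplotlib 3.10.9.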

Additional observations from a re-analysis of the deposited data

How the results depend on the processing

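Across 11 alternatives and 8 leave-one-out fits, the median change of the 60 genes kept its direction for basophils between genotypes. It also did so for both changes from pre-Baso to basophils and for the difference of the genotype effects. Several settings could not move these medians: other filters, fewer groups fitted, the replicate block and another estimate of spread. Nor could leaving out a library of a group that was not compared. In pre-Baso between genotypes the median of -0.10 changed sign, to 0.08, without the second control library. Between genotypes in basophils, none of the 60 genes was called with a pseudocount of 5, with no filter, with 1 length per gene or with only the compared groups fitted, and leaving out 1 library gave 0 to 2 calls. The median there was 1.08 with a pseudocount of 0.1, 0.26 with a pseudocount of 5, 1.08 with scaling to protein-coding genes, and 0.30 to 1.06 with 1 library left out. In pre-Baso between genotypes no gene was called in any setting, and the median was -0.28 to 0.08 with 1 library left out.

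From pre-Baso to basophils in deficient mice, 6 genes were called with no filter, 25 with only the compared groups, and 0 to 49 with 1 library left out, and the median was -1.73 with a pseudocount of 0.1, -0.71 with a pseudocount of 5, -1.68 with scaling to protein-coding genes and -1.66 to -1.05 with 1 library left out. In control mice 44 to 59 genes were called (44 of the 45 tested at a TPM of at least 5), 52 to 59 with 1 library left out, and the median was -3.14 and -1.14 with pseudocounts of 0.1 and 5, -2.98 with scaling to protein-coding genes, -2.61 with FPKM and -2.47 to -2.09 with 1 library left out. The difference of the genotype effects gave 0 calls throughout, with medians of 1.21 and 0.36 with pseudocounts of 0.1 and 5, 1.12 with scaling to protein-coding genes and 0.49 to 1.10 with 1 library left out. The causes were not tested.

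With the replicate number as a block, the calls were 1 and 0 of the 60 between genotypes in basophils and pre-Baso, 52 and 59 from pre-Baso to basophils in deficient and control mice, and 0 for the difference of the genotype effects. The adjusted p of Birc5 in basophils was then 0.0484. The labels tie same-numbered samples by the number alone; replicate differences correlated at 0.202 between the basophil groups and at -0.0544 between the pre-Baso groups.

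With 2 libraries a group, changes of low genes between genotypes in basophils were not resolved. In basophils the median of the bases assigned to a gene of the 60 was 2961 and 6059 in deficient and 1537 and 1846 in control libraries. Read depth is unknown.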
